A study of Mus musculus with 24 samples.

Results

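The 4 arrays of DA1-3B cells that had received the empty plasmid (VOID) were taken out of a series of 24 arrays in 6 groups of 4, and were described on their own, with no comparison between groups. DA1-3B is a mouse leukaemia line of the strain C3H eOuJ that carries the Bcr-ABL oncogene, as do the cells of every other group, and the cultures were grown in DMEM with fetal calf serum. The other groups carried constructs of p65 (RelA), one of the NF-kB proteins, or of its mutants and fragments, so VOID is the state of a transfected line and not of untouched cells. The labels name neither the plasmid backbone nor the time from transfection to harvest, and do not say whether the 4 samples came from separate cultures. The spread between them may therefore be technical.

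BCR-ABL is a constitutively active tyrosine kinase made by the fusion of the genes for BCR and ABL1, and it signals through adaptors such as GRB2 and through STAT5, RAS and PI3 kinase. The parent line of these cells depended on interleukin 3, whose receptor joins a ligand-binding alpha chain to a beta chain, and BCR-ABL is known to replace that signal. Blood lineages are told apart by the transcription factors and surface proteins they make, such as GATA1 in erythroid cells, megakaryocytes and mast cells, PU.1 in macrophages and granulocytes, and PAX5 in B cells.

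The level used throughout is the log2 processed signal of a gene's brightest probe minus the 75th percentile of the signal on the same array, so that 0 is the 75th percentile and each unit is a doubling. A gene was called detected when a probe of it was well above background, as the scanner software marks it, on all 4 arrays. By that rule 13126 of the 27300 genes with a name on the array were detected (48.1%), 3520 were above background on 1 to 3 arrays and 10654 on 0 arrays. Detected genes had a median level of 0.54, with 5% of them below -3.48 and 5% above 5.63. Values written with ± are the mean and SD over the 4 arrays (n = 4). A rank orders the signals of different probes, which differ in sequence, and is not an order of transcript amounts. In a bulk sample fewer cells of a type and less RNA per cell cannot be told apart.

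Of the 43020 spots that are not controls, 49.6% to 55.5% passed the background mark, depending on the array, and 0 were saturated. The signal at the 75th percentile lay between 673.8 and 928.5, and repeated spots of a probe varied by a median of 4.14% to 4.58%. Over the detected genes, the Pearson correlation between arrays ran from 0.972 (replicates 1 and 3) to 0.994 (replicates 2 and 4), a correlation across genes, which are not independent replicates. The median SD of a detected gene over the 4 arrays was 0.29. The 4 arrays lay on 4 different slides, so slide and sample cannot be told apart. Their number limits the precision.

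**Figure D1:**
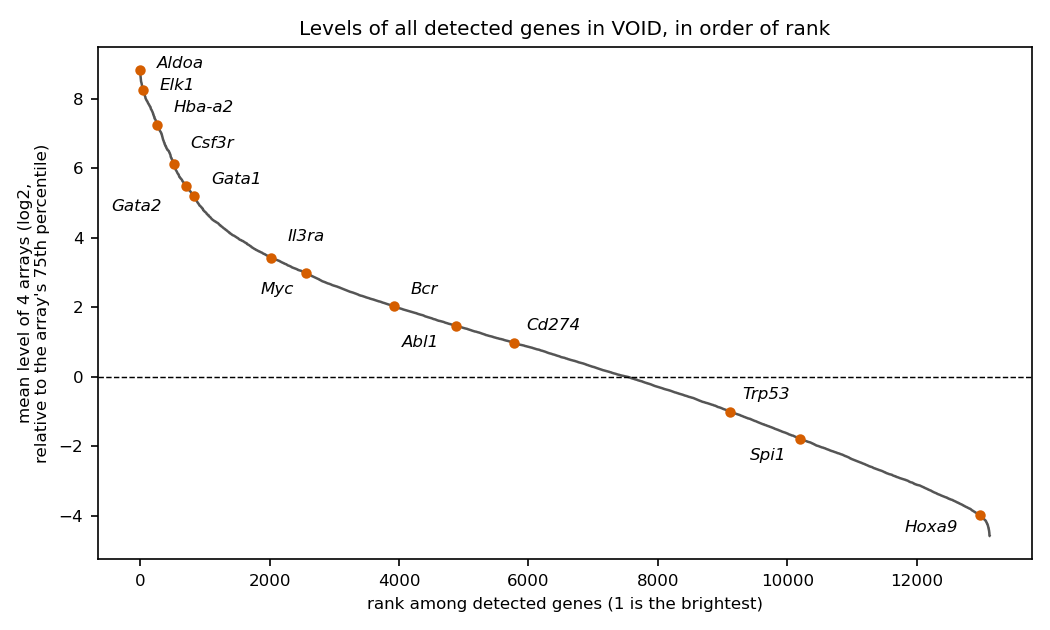
Mean level of each of the 13126 detected genes in VOID (vertical axis, log2 relative to the array's 75th percentile, mean of 4 arrays) against its rank (horizontal axis, 1 is the brightest), with 14 genes marked as points. Levels ran from 8.83 for Aldoa to -4.58, and Gata1, Gata2, Csf3r and Hba-a2 lay in the steep part at the bright end, above Myc, Bcr and Abl1.

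Cytosolic ribosomal proteins were the largest of the families counted among the brightest signals. Aldoa, the glycolytic enzyme aldolase A, ranked first, at 8.16, 8.68, 9.61 and 8.84, a mean of 8.83 ± 0.60 (SD, n = 4). Ribosomal protein genes followed, with Rpl29 at 8.80 ± 0.32, Rps27a at 8.66 ± 0.26, Rpl37a at 8.64 ± 0.33, Rpl9 at 8.62 ± 0.33, Rps14 at 8.59 ± 0.20, Rpl41 at 8.58 ± 0.23 and Rplp1 at 8.54 ± 0.21. Rps27a was detected on 2 of 3 probes, and its rank of 3 became 1493 with the mean of its probes. Of 109 cytosolic ribosomal protein genes measured, 101 were detected, at a median level of 7.70, and 59 lay among the 200 brightest genes. Fau, which encodes a ribosomal protein fused to a ubiquitin-like part, was at 8.40 ± 0.29. The cytoskeletal gene Actb was at 8.49 ± 0.25 and Tpt1, which encodes the growth-related protein TCTP, was at 8.47 ± 0.26. Among the 25 brightest genes also stood Rps16 (8.49 ± 0.20), Rpl10a (8.48 ± 0.27), Rplp2 (8.41 ± 0.33), Rpl10 (8.39 ± 0.28) and Rpl37rt (8.44 ± 0.22).

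Other families lay lower on the same scale. The proteasome had 49 of 50 genes detected and 0 among the 200 brightest (median level 3.40), and translation factors had 64 of 68 detected (median 3.24). Oxidative phosphorylation had 95 of 101 detected (median 4.50), and splicing and RNA-binding proteins had 41 of 43 (median 3.38). Heat shock and chaperonin genes had 64 of 83 detected (median 1.91) and histones 53 of 73 (median 1.96), 8 of them among the 200 brightest. Of those 200, 93 had no established symbol, beside 6635 of the 27300 genes measured. The 93 are predicted genes such as Gm8580 (8.65 ± 0.30) and Gm6177 (8.48 ± 0.28), RIKEN clones such as 2610028H24Rik (8.45 ± 0.27), or transcripts known by an accession such as TC1726791 (8.50 ± 0.30) and NAP114350-1 (8.46 ± 0.25). Among bright genes singled out after their values were seen were the metallothionein genes Mt2 (7.74 ± 0.58) and Mt1 (7.43 ± 0.34), which bind metal ions, and the cytokine gene Mif (7.58 ± 0.33). Hmga1, a chromatin protein of proliferating cells, was at 7.03 ± 0.22, the interferon-induced membrane protein gene Ifitm1 at 7.09 ± 0.14, the X-linked homeobox gene Rhox5 at 6.65 ± 0.22 and Mfsd2b, a sphingosine 1-phosphate exporter of red cells and platelets, at 6.59 ± 0.29. All 7 were above background on all 4 arrays by their brightest probe. The other probe of Mt1 was at 0.56 and that of Mfsd2b at -3.12, both detected. Hmga1 was detected on 2 of 3 probes, the others at 0.74 and -4.38. The other probes of Mif (6.99 to 7.25) and Ifitm1 (7.09) lay close to the brightest, and Mt2 and Rhox5 had 1 probe each.

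Some of the brightest names belong to probes that share sequence with probes of other genes. A run of at least 25 identical bases, on either strand, with a probe of another named gene was present in 3.54% of named probes, but in 18 of the 50 and 90 of the 200 brightest genes (45%). The 60-base probes of Elk1, a transcription factor of the ETS family, Glrx2, a mitochondrial glutaredoxin, and Med16, a subunit of the Mediator complex, share 41 bases, and that of Cxcl11, a chemokine gene, shares 31 of these. The probe of Exosc2, an RNA exosome subunit that ranked 12, shares 39 bases with that of Milr1, a receptor of mast cells. To show the overlap, 30 bases of each probe are given, 5′ to 3′, with 20 shared bases in capitals.

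Elk1, probe bases 21 to 50 (mm9 chrX:20510521-20510580, minus strand): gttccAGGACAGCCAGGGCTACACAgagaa
Glrx2, probe bases 15 to 44 (mm9 chr1:145596708-145596767, plus strand): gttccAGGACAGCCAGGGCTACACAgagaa
Med16, probe bases 2 to 31 (mm9 chr10:79357669-79357728, minus strand): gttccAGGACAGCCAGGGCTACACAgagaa
Cxcl11, probe bases 10 to 39 (mm9 chr5:92788567-92788626, minus strand): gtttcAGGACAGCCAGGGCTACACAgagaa
Exosc2, probe bases 1 to 30 (mm9 chr2:31536706-31536765, plus strand): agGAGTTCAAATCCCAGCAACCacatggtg
Milr1, probe bases 1 to 30 (mm9 chr11:106628762-106628821, plus strand): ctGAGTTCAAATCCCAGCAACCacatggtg

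The 20 bases in capitals in the first 4 lines occur in 7 of the 39429 probes, under 7 gene names, and all 7 probes were detected, at a median level of 7.38 and a range of 0.49 to 8.26. Over all probes the median was -4.62 and 46.3% were detected. Probes of the same genes without the run gave other signals. Elk1 was at 8.24, 7.88, 8.60 and 8.31 with the run, and its other probe was not well above background on any array (mean -5.29). Glrx2 was at a mean of 8.25 with the run, at 2.50 on a probe without it, and not above background on another. Med16 read 7.34 with the run and 0.86 without it, and Cxcl11 7.38 and 3.04. Milr1 was at 7.69 on the probe that shares a run with Exosc2. It was at 6.79 on a probe without a shared run and at -1.16 on another. The ranks of Elk1 (41), Glrx2 (44), Med16 (246), Cxcl11 (238) and Exosc2 (12) therefore each rest on a probe whose sequence is shared. Slc10a1, a bile acid transporter of the liver, ranked 29 (8.37 ± 0.29) on a probe that shares a run with 1 other named gene, while its other probe was not well above background on any array (mean -6.79). Of the ribosomal protein genes, Rpl29, rank 2 on a probe that shares a run, ranked 151 on its other probe (7.33), and Rpl10, rank 24, ranked 68 without such probes. Gm8580, Gm6177, Rpl10a and TC1726791 had no probe free of a shared run. These genes were singled out after their values were seen, and what the shared runs hybridise to was not tested.

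Genes with several probes often disagreed more widely. Of 7253 genes with 2 or more probes, all probes were detected for 3024 and none for 2488, and for 1741 only some were. The 3370 genes with at least 2 detected probes had a median gap of 2.03 (log2) between the brightest and the dimmest. A level below is therefore that of the gene's brightest probe, and where the probes of a listed gene disagree in detection this is stated. For Ikzf1, Csf1r, Ifnar1, Itgal, H2-Ob, Psme2 and Cgas 2 of 3 probes were detected, for Cd44 2 of 4, and for Cd68, Siglecf, Cr2, Itga4, Psmb9, Icosl, Tlr4, Hif1a, Prdm10 and Tbx22 1 of 2. The probes of Cd22, Cd44 and Gapdh share a run with a probe of another gene.

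Lists of genes were then read against the share of all genes detected, 48.1%. Over 36 lists, 438 of 755 measured genes were detected (58.0%). The 20 housekeeping genes and the 19 measured genes of MHC class I presentation were all detected. Next came proliferation (24 of 26), the NF-kB pathway (27 of 30), BCR-ABL partners and proximal signalling (33 of 37), tumour suppressors (23 of 26), caspases and the Bcl2 family (25 of 30) and megakaryocyte and platelet markers (15 of 18). At the other end lay X inactivation and Y-linked genes (0 of 10), Hox genes (1 of 32) and the markers of fibroblasts (1 of 9), hepatocytes (1 of 7) and epithelium (1 of 7). Between these, lists such as eosinophil (4 of 9), stem and progenitor (8 of 16), surface antigen (31 of 54) and chemokine (17 of 37) genes lay within 10 percentage points of all genes, which is not a result about their members. The calls of dim lists depend on the rule: by genes above background on at least 1 array, 61.0% of all genes, neutrophil markers had 13 of 19, dendritic cell markers 8 of 10 and drug transporters 8 of 10, all above that share where they had been below it or near it. The same rule gave 17 of 25 for erythroid markers (68%), near neutrophil markers (68.4%). It gave 17 of 22 for mast cell markers (77.3%) and 18 of 18 for megakaryocyte and platelet markers. Monocyte and macrophage markers had 11 of 19 (57.9%) and ligands 25 of 43 (58.1%). Both were nearer to the share of all genes than by the 4-array rule. T cell markers had 8 of 16, Hox genes 7 of 32 and fibroblast markers 3 of 9. Epithelial markers had 2 of 7 and X inactivation and Y-linked genes 1 of 10.

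**Figure D2:**
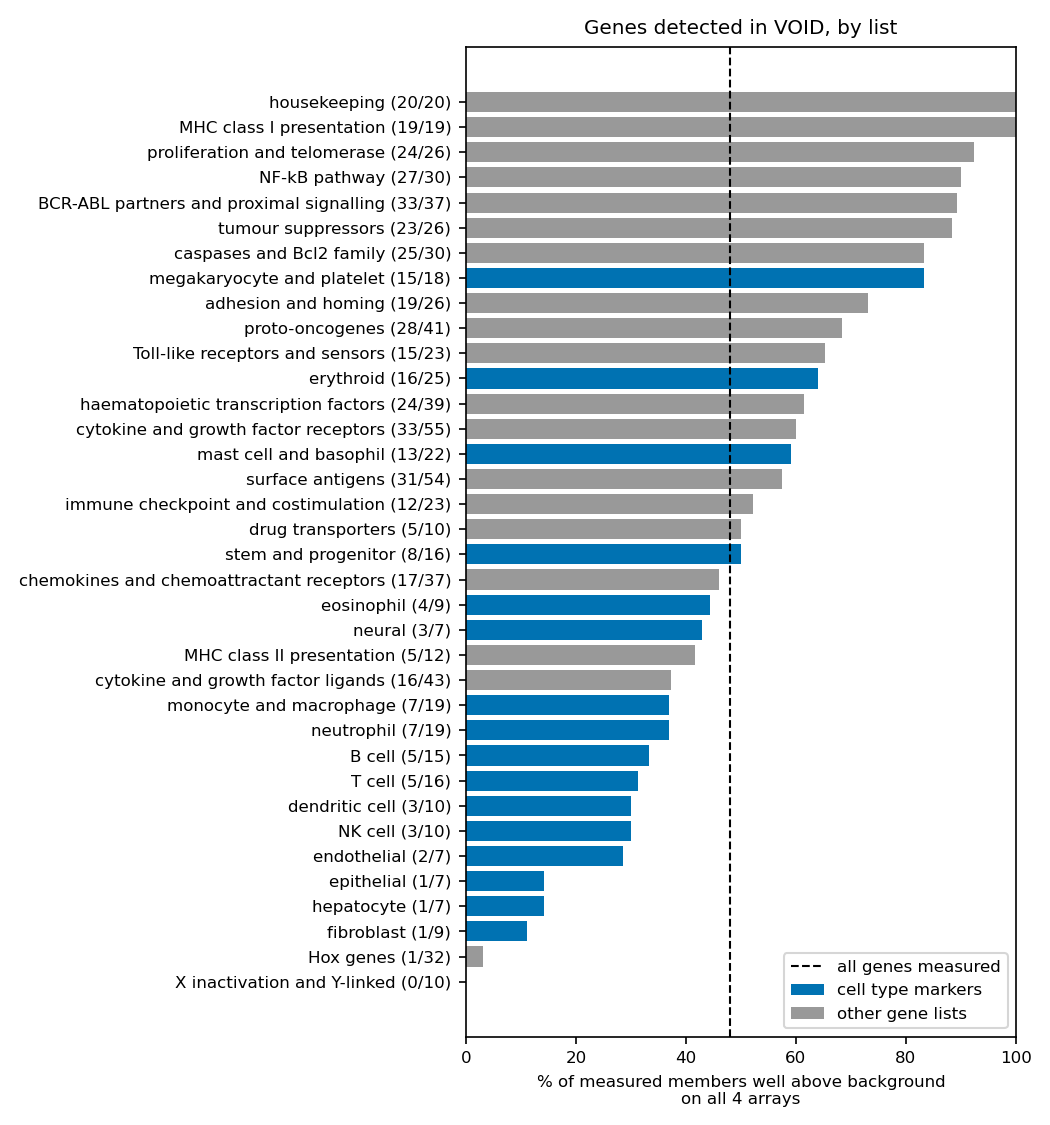
Share of measured members that were well above background on all 4 VOID arrays (horizontal axis, percent) for each of the 36 lists, with detected and measured numbers in brackets. Blue bars are cell type markers, grey bars other gene lists, and the dashed line is the share over all 27300 genes (48.1%). Megakaryocyte (83.3%), erythroid (64%) and mast cell (59.1%) markers are the only marker lists more than 10 percentage points above the line. Counted on at least 1 array, erythroid markers had 68% beside 61.0% of all genes.

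Of the haematopoietic transcription factors listed, Lyl1, Zfpm1, Gata2 and Gata1 had the highest levels. Lyl1, a basic helix-loop-helix factor, was at 6.38, 6.22, 5.90 and 6.32, a mean of 6.20 ± 0.22 (SD, n = 4). Zfpm1, which encodes the GATA partner FOG1, was at 6.26, 6.07, 6.23 and 6.15, and Gata2 at 5.36, 5.59, 5.65 and 5.36. Gata1 was at 4.68, 5.26, 5.55 and 5.28, with replicate 1 the lowest. All 4 ranked within the top 10% of detected genes. Nfe2, a factor of globin and platelet genes, was at 4.34 ± 0.22, and Tal1, a partner of Lmo2 in progenitors, at 4.14 ± 0.14.

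Of the 39 measured haematopoietic factors 24 were detected (61.5%), 8 were above background on 1 to 3 arrays and 7 on 0 arrays. Runx1 (2.76 ± 0.30), Gfi1b (2.51 ± 0.32) and Myb (2.23 ± 0.48), which act in progenitors, lay above the median of detected genes (0.54). So did Klf1 (1.71 ± 0.29), the erythroid activator of adult globin. Spi1, which encodes PU.1, was dim, at -2.28, -1.51, -1.76 and -1.58, and Ikzf1, the Ikaros gene, was at -2.67 ± 0.45. Among the 7 on 0 arrays were Cebpa, a driver of granulocyte fate, Gfi1, the T cell factor Gata3, and the B cell factors Ebf1, Irf4 and Bcl6. Pax5 was above background on 1 array.

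Globin and erythroid genes were bright in part and below background in part. Hba-a2, an adult alpha globin gene, was at 6.85, 6.98, 7.86 and 7.32, a mean of 7.25 ± 0.45 (SD, n = 4), and Hba-a1 at 4.55, 5.37, 6.09 and 5.43. Replicate 3 was the highest and replicate 1 the lowest for both. Hbb-bt, an adult beta globin gene, was at 4.03, 4.62, 5.31 and 4.80, and Hbb-b2 at 3.60, 4.18, 4.60 and 3.79, again lowest on replicate 1 and highest on replicate 3. Of the other beta-like genes Hbb-bs was at 1.51 ± 0.49, the embryonic Hbb-bh1 at 0.86 ± 0.25 and Hbb-y at -0.06 ± 0.37, while the embryonic alpha gene Hba-x was not above background on any array. These genes are close copies, so which of them each probe reads is uncertain. The probes of Hba-a1 and Hbb-b2 are shown whole, 5′ to 3′, since both hold coding sequence and show what the globin levels were read with.

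Hba-a1 probe (mm9 chr11:32183955-32184014, plus strand): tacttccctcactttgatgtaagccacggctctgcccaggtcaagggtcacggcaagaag
Hbb-b2 probe: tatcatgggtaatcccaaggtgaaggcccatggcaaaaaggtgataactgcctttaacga

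Of the 25 measured erythroid markers 16 were detected (64%). Rhd, a membrane protein of red cells, was at 1.81 ± 0.20, the erythropoietin receptor gene Epor at 1.61 ± 0.07 and the transferrin receptor gene Tfrc at 2.00 ± 0.78. In contrast, Alas2, the first enzyme of haem synthesis in red cells, was at -6.99, -7.56, -6.82 and -6.48 and not above background on any array. The same held for Ahsp, the chaperone of alpha globin, the spectrin gene Sptb, Rhag and the carbonic anhydrase gene Car2. Slc4a1, the band 3 anion exchanger, was above background on 1 array. Car1 and Epb42 were detected on 1 of 2 probes each, at -3.57 ± 0.36 and -2.56 ± 0.40.

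Megakaryocyte and platelet markers were detected in 15 of 18 cases, and 0 of the 18 were below background on all arrays. Itga2b, the alpha chain of the fibrinogen receptor, was at 3.28, 3.50, 3.84 and 3.73, and Itgb3, its beta chain, at 2.87, 2.86, 2.06 and 2.13 on 1 of 2 probes. F13a1, a subunit of clotting factor XIII, was at 3.26, 3.43, 3.34 and 3.88 and Pf4, a chemokine of platelet granules, at 2.51, 3.24, 3.31 and 2.79. Replicate 1 was the lowest array for Itga2b, the highest for Itgb3. Rab27b, which secretes granules, was at 1.92 ± 0.39, and Fli1 at 1.70 ± 0.19. Gp9 (0.67 ± 0.20) and Gp1ba (0.62 ± 0.36), chains of the receptor for von Willebrand factor, were detected, whereas their partners Gp5 and Gp1bb were above background on 2 and 1 arrays. Ppbp, another granule chemokine, was at -0.64 ± 0.93 and Vwf at -3.10 ± 0.23, both detected.

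Mast cell and basophil markers were detected in 13 of 22 cases (59.1%). Slc18a2, the transporter that loads histamine into granules, was at 4.80, 4.75, 5.52 and 4.73, with replicate 3 above the rest. Cma1, a mast cell chymase, was at 2.49, 3.67, 4.14 and 3.57, lowest on replicate 1. Cpa3, the mast cell carboxypeptidase, was at 0.31, 1.72, 1.93 and 1.55, also lowest on replicate 1. Tph1, which makes serotonin, was at 1.60 ± 0.37, and Hdc, which makes histamine, at -1.51 ± 0.13. Of the IgE receptor, the gamma chain gene Fcer1g was at 0.68 ± 0.29 and the alpha chain gene Fcer1a at -0.21 ± 0.35, while the beta chain gene Ms4a2 was not above background on any array.

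Kit, the stem cell factor receptor on which mast cells depend, was at -7.18, -7.59, -7.01 and -6.71, not above background on any array. Mcpt2, Mrgprb1 and Mrgprb2, genes of tissue mast cells, were on 0 arrays as well. The basophil protease gene Mcpt8 was detected at -3.38 ± 0.27, and Ms4a3, a gene of basophil and granulocyte progenitors, at 1.02 ± 0.44. Tpsb2, a tryptase, was detected on 1 of 2 probes (-3.08 ± 0.31), and Tpsab1 was above background on 1 array. The list thus held genes at both ends of the scale.

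**Figure D3:**
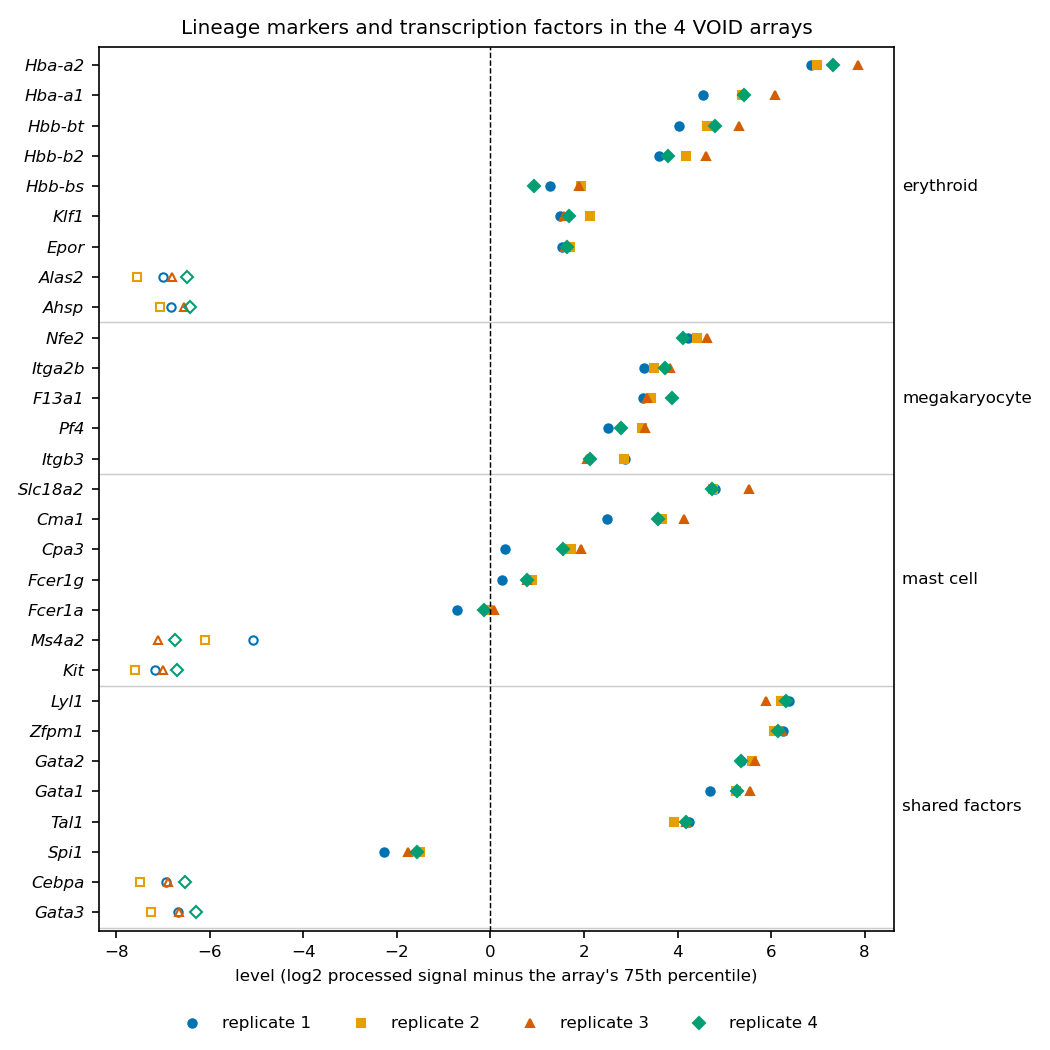
Levels on each of the 4 VOID arrays (horizontal axis, log2 relative to the array's 75th percentile; symbols are replicates) for erythroid, megakaryocyte and mast cell markers and for transcription factors. Filled symbols are genes detected on all 4 arrays; open symbols mark genes not above background on any array, whose position has no order. Hba-a2 lay between 6.85 and 7.86, while Alas2, Ahsp, Ms4a2, Kit, Cebpa and Gata3 lay below -5.

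Since the GATA factors were bright, the promoters of these 3 lists were searched for AGATAA, letters that GATA factors are known to bind, on both strands, in the 300 bases from 250 before to 50 after the RefSeq start (build GRCm38.p6). Of 44 detected members 34 had a promoter in the table, and 11 of these held the letters (32.4%). Of the members that were not detected, 6 of 14 did (42.9%). Over all genes measured the share was 9.78% of 17548, and over detected genes 6.73%. The letters were thus no less frequent in the members that were not detected, and the shares are a description without a test. Base composition differed too: the median GC content was 50.7% in the detected members and 60.3% over all detected genes. Of TATAAA, searched in the same way, the shares were 23.5% in the detected members, 21.4% in the others and 12.6% over all genes. The promoter with a match of the brightest member of each list is shown, with the match in capitals (TTATCT is AGATAA on the other strand).

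Slc18a2, mast cell list (GRCm38.p6 chr19:59260628-59260927, plus strand): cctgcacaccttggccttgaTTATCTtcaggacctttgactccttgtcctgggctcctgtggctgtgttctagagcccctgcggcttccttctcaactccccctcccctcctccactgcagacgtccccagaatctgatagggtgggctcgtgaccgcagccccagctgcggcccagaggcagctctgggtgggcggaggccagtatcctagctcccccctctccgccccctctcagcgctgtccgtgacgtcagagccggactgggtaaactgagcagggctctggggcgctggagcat
Tal1, erythroid list (GRCm38.p6 chr4:115056176-115056475, plus strand): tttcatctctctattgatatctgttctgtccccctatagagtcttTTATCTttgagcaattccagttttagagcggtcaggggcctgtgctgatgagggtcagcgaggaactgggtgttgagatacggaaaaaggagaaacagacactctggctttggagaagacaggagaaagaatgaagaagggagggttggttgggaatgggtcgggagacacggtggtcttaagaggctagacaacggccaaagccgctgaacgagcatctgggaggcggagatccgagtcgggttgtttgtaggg
Pf4, megakaryocyte list (GRCm38.p6 chr5:90772185-90772484, plus strand): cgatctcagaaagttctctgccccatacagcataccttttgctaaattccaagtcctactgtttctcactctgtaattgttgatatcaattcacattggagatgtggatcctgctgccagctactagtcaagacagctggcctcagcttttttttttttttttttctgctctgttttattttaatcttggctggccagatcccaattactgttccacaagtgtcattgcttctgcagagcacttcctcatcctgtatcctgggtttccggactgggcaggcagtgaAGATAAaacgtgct

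The match began at base 21 of the window in Slc18a2, at base 46 in Tal1 and at base 287 in Pf4. In Pf4 it lay after the start. The other 8 detected members with 1 match were Rhd, Epor, Hbb-bs, Cpa3, Cd200r3, Fcer1a, Clec1b and Epb42.

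Most granulocyte and macrophage genes were not detected on all 4 arrays. Csf3r, the receptor for granulocyte colony-stimulating factor, was at 6.53, 5.68, 6.32 and 5.93, a rank of 516, on a probe that shares a run with a probe of another gene. Cebpe, a factor of late granulocytes, was at 3.50 ± 0.28, and Itgam, the CD11b chain, at 3.31 ± 0.44 on 1 of 3 probes. Of the granule and other neutrophil genes, Elane (-1.26 ± 0.42) and Prtn3 (-3.01 ± 0.60) were detected, Mpo and Ctsg were above background on 2 arrays each, and Ngp, S100a8, Ly6g, Mmp8, Fcnb and Retnlg on 0. In all 7 of 19 neutrophil markers were detected (36.8%), and another 6 were above background on 1 to 3 arrays. Among monocyte and macrophage markers it was also 7 of 19, led by the chemokine receptor gene Ccr2 (0.79 ± 0.36), the receptor gene Csf1r (0.34 ± 0.53), Cd68 (0.11 ± 0.81) and Adgre1, the F4/80 gene (-1.83 ± 0.49). Fcgr1 (-2.47 ± 0.64), Lyz1 (-3.12 ± 0.18) and C1qb (-3.43 ± 0.39) were detected at low levels, and Lyz2, Cd14, Cx3cr1, C1qa, C1qc, Mrc1 and Mertk on 0 arrays. Prg2, which encodes the major basic protein of eosinophils, was at 0.93 ± 0.77, with Siglecf at -0.82 ± 0.21, Epx at -1.56 ± 0.37 and Ear6 at -2.31 ± 1.26, while Il5ra, Ccr3, Prg3 and Ear1 were on 0 arrays.

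Siglech, a receptor of plasmacytoid dendritic cells, illustrates a level that rests on 1 probe. Its brightest probe (mm9 chr7:63034088-63034147, plus strand) was at 5.38, 4.99, 5.94 and 5.42, while the other probes of the gene were above background on 1 and 0 arrays, at means of -5.61 and -6.80. The bright probe shares a run of 15 bases with that of Elk1, and 30 of its bases are shown. This run begins at base 16 and is in lower case. The capitals before it match the first 11 bases of the Elk1 capitals in the same alignment. Only the 1 base between the capitals and the run differs from Elk1.

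Siglech, probe bases 1 to 30: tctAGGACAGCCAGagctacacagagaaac

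Of the 10 dendritic cell markers only Siglech, Ccr7 (-0.17 ± 0.75) and Itgax, the CD11c gene (-3.74 ± 1.23), were detected on all 4 arrays, 5 more were above background on 1 to 3 arrays, and Batf3 and Cd209a were on 0.

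Lymphoid markers were detected in about 1 in 3 cases, below the share over all genes. Of 16 T cell markers, 5 were detected: the adaptor gene Lat (3.26, 3.14, 3.11 and 2.91), which mast cells and platelets also use, Cd3d (1.71 ± 0.15), Cd4 (0.75 ± 0.51, 1 of 2 probes), Cd3e (0.15 ± 0.38) and the kinase gene Lck (-0.54 ± 0.33). Zap70, Cd8a, Cd8b1, Cd247, Cd2, Thy1, Tcf7 and Bcl11b were on 0 arrays. Among 15 B cell markers Cd79b, a chain of the B cell receptor, was at 1.12 ± 0.13, Cd22 at -2.31 ± 0.72 and Vpreb3 at -2.88 ± 0.48, with Cr2 (-3.26 ± 0.50) and Vpreb1 (-3.96 ± 0.26) near the floor, and Ms4a1, Cd79a, Blnk, Igll1, Rag1, Rag2 and Ebf1 on 0 arrays. Gzmb, a cytotoxic granule protease, was bright at 4.07, 6.01, 6.32 and 5.88, an SD of 1.02, lowest on replicate 1. The other NK cell markers detected were Nkg7 (1.13 ± 0.27) and Prf1 (-1.48 ± 0.58), and the other 7 of 10, Gzma, Klrd1, Klrk1, Ncr1, Klrb1c, Eomes and Tbx21, were on 0 arrays. Thus no lymphoid list was detected as a set.

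Stem and progenitor markers were detected in 8 of 16 cases (50%), near the 48.1% of all genes, which is not a result about the list. Runx1 (2.76 ± 0.30), Angpt1, a ligand of the receptor Tie2 (2.75 ± 0.14), Gfi1b (2.51 ± 0.32), Myb (2.23 ± 0.48), Cd48 (1.82 ± 0.29) and Lmo2 (0.65 ± 0.21) were the brightest of 8 detected out of 16. Cd34, Ly6a, which encodes Sca-1, Procr, Prom1, Meis1 and Hlf were on 0 arrays. Of the 32 Hox genes measured 1 was detected, Hoxa9, a factor active in many acute leukaemias, at -3.92, -4.25, -4.03 and -3.75 on 1 of 2 probes, rank 12971 of 13126. Another 6 were above background on 1 or 2 arrays and 25 on 0, Hoxa2, Hoxa3, Hoxa4, Hoxa5, Hoxa6 and Hoxa10 among the latter.

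Markers of fibroblasts, endothelium, epithelium and hepatocytes were detected in 5 of 30 cases, and neural markers in 3 of 7, near the share of all genes. The detected ones were Acta2 (0.40 ± 0.97) of the fibroblast list, Kdr (2.48 ± 0.16, 1 of 2 probes) and Pecam1 (-0.89 ± 0.38) of the endothelial list, Krt14 (-3.88 ± 0.44) of the epithelial list and Tat (-3.93 ± 0.50) of the hepatocyte list. The neural list had Snap25, a vesicle fusion protein (2.75 ± 0.44), Mbp (1.90 ± 0.12) and Syp (0.40 ± 0.29). Defining genes such as Col1a1, Col3a1, Dcn, Postn, Pdgfra and Pdgfrb of fibroblasts, Cdh5, Tek, Tie1, Emcn and Cldn5 of endothelium, Epcam, Krt5, Krt8 and Krt18 of epithelium, Alb, Apoa1, Apob, Fgb, Ttr and Cyp2e1 of hepatocytes, and Gfap, Map2, Rbfox3 and Tubb3 of neural cells were on 0 arrays. The label of a blood line was met by Ptprc, the pan-leukocyte CD45 gene, at 0.66, 1.51, 1.87 and 1.52.

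The fusion partners themselves lay between the median (0.54) and the 75th percentile (2.43) of the levels of detected genes. Bcr was at 2.30, 2.14, 1.77 and 1.90, a mean of 2.03 ± 0.24 (SD, n = 4), on a probe at mm9 chr10:74645345-74645404 (plus strand). Abl1 was at 0.96, 1.91, 1.60 and 1.40, a mean of 1.47 ± 0.40 (SD, n = 4), on a probe at mm9 chr2:31658943-31659002 (plus strand), while its other probe, detected as well, had a mean of -3.82. Whether either probe reads the fusion transcript was not tested. Around them, 33 of the 37 measured partner and signalling genes were detected (89.2%).

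Dok2, an inhibitory adaptor that BCR-ABL phosphorylates, was the brightest of the partner list at 5.15, 5.63, 5.30 and 5.39. Ptpn11, the phosphatase SHP2, was at 4.03 ± 0.20, Akt1 at 3.52 ± 0.30, the adaptor gene Grb2 at 3.13 ± 0.20, Akt2 at 3.09 ± 0.14 and Inpp5d, the lipid phosphatase SHIP1, at 2.97 ± 0.12. The kinase genes Jak1 (2.86 ± 0.28), Jak2 (1.64 ± 0.18) and Jak3 (-0.18 ± 0.31), which relay cytokine signals, were all detected. Stat5b was at 1.47 ± 0.19, Stat5a at 0.68 ± 0.43, and Crkl, a direct substrate, at -0.29 ± 0.24. Of the Src family, Fyn (-1.26 ± 0.34) and Lyn (-1.77 ± 0.18) were detected below 0, and Src was on 0 arrays, at -7.33, -7.76, -7.12 and -6.77. Sos1 was also on 0 arrays, whereas its relative Sos2 was detected at 0.11 ± 0.10.

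Proto-oncogenes were detected in 28 of 41 cases. The cyclin gene Ccnd3 was at 5.33, 5.45, 6.09 and 5.53, its partner kinase Cdk4 at 4.44 ± 0.19 (on a probe that shares a run) and Ccnd2 at 3.48 ± 0.13, whereas Ccnd1 was on 0 arrays and Cdk6 at -2.31 ± 0.38. Of the AP-1 genes Jund was at 5.07 ± 0.45, Jun at 2.50 ± 0.47, Junb at -1.11 ± 0.28 and Fos at -2.20 ± 0.84. Myc was at 2.93, 3.22, 2.46 and 3.30, lowest on replicate 3, and Mycn at 3.15, 3.87, 4.01 and 3.66. Mycl was on 0 arrays. Mdm2, the ubiquitin ligase of p53, was at 4.06 ± 0.31, and Pim1, a kinase induced by STAT5, at 3.20 ± 0.70. Nras (0.24 ± 0.29) and Hras (1.46 ± 0.33, 1 of 3 probes) were detected. Rel, Bcl3, Bcl6, Maf, Fgr and Tlx1 were on 0 arrays.

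Tumour suppressors were detected in 23 of 26 cases. Cdkn2d and Cdkn1a, inhibitors of cyclin-dependent kinases, were at 3.70 ± 0.44 and 3.60 ± 0.26, Asxl1 at 2.99 ± 0.13, Rb1 at 2.50 ± 0.42 and Cdkn1b at 2.12 ± 0.46. Trp53 was dim at -0.96, -0.27, -1.82 and -0.95, rank 9112, lowest on replicate 3. Cdkn2a, which encodes p16 and p19ARF and is deleted in many cell lines, was detected by both its probes. The brighter was at 0.66, 0.54, 1.07 and 0.93, and the other lay near the floor, at a mean of -3.87. The floor of the list was Apc (-3.60 ± 0.55, 1 of 2 probes) and Ikzf1 (-2.67 ± 0.45). Wt1 and Cdkn1c were on 0 arrays and Brca1 on 2.

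Among cytokine receptors, the shared beta chains stood at the top with Csf3r. Csf2rb, the common beta chain for interleukin 3, interleukin 5 and GM-CSF, was at 5.56, 5.99, 5.80 and 5.99, a mean of 5.84 ± 0.20 (SD, n = 4), and Csf2rb2, the mouse beta chain specific to interleukin 3, at 5.39, 5.85, 5.62 and 5.94. Each had a second detected probe, at 2.22 and 3.32. Il3ra, the alpha chain for interleukin 3, was at 3.01, 3.38, 3.73 and 3.63, lowest on replicate 1. The alpha chains of the related receptors were near or below background: Csf2ra was above background on 3 arrays (-3.74, -4.11, -4.99 and -3.89) and Il5ra on 0. The genes Csf2rb and Csf2rb2 are near copies, and how far their probes read each other was not tested.

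Of the 55 measured receptors 33 were detected (60%). Il2ra, the CD25 chain, was at 4.17, 3.99, 3.11 and 4.69, lowest on replicate 3. Crlf2, a receptor chain for TSLP, was at 3.82 ± 0.21, Igf1r at 3.38 ± 0.20, Ltbr at 1.41 ± 0.24 and the interferon receptor gene Ifnar2 at 1.33 ± 0.41. Its partner Ifnar1 was at -0.94 ± 0.29. Ifngr1 (0.15 ± 0.17), Ifngr2 (0.61 ± 0.48) and Tnfrsf1a (1.04 ± 0.22) were detected, and Tnfrsf1b lay near the floor (-3.85 ± 0.13). Il2rg, the common gamma chain of several interleukin receptors, was at 0.43 ± 0.50. Kit, Il7r, Il6ra, Il1r1, Il1r2, Il10ra, Lifr, Osmr and Cd40 were on 0 arrays, and Flt3 on 1.

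Ligand genes were detected less often on all 4 arrays, in 16 of 43 cases (37.2%). Counted on at least 1 array it was 25 of 43 (58.1%), near the 61.0% of all genes. Ltb, lymphotoxin beta, was at 2.97, 3.37, 3.30 and 3.51, and Flt3l, the ligand of Flt3, at 2.40, 2.46, 2.91 and 2.41, highest on replicate 3. Tgfb1 was at 2.41 ± 0.32, Ebi3, a subunit of dimeric cytokines of the interleukin 12 family, at 1.58 ± 0.54 and Il6 at 1.27, 1.46, 1.74 and 1.55. Vegfa, the angiogenic factor, was at 1.27 ± 0.56. Il3 was above background on 1 array (-6.99, -4.53, -5.96 and -6.50), and Csf2, the GM-CSF gene, on 0 (-6.95, -7.40, -6.55 and -6.02). Tnf was detected at -2.02 ± 0.34, and Il1a, Il1b, Il2, Thpo, Il10, Il12a, Il12b, Ifng and Ifnb1 were on 0 arrays. Interleukin 3 receptor genes were thus detected where the Il3 probe was not above background on 3 of 4 arrays.

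Chemokines and chemoattractant receptors were led by Ltb4r1, a leukotriene B4 receptor (3.34, 3.54, 4.33 and 3.50). Ccl4 was at 1.18 ± 0.52, Ccr2 at 0.79 ± 0.36, Ccr7 at -0.17 ± 0.75, Ccl5 at -0.55 ± 0.50 and Cxcr2 at -1.36 ± 0.18, and the other 11 of 17 detected members lay between -1.69 and -4.06, Cxcr4, the receptor that holds cells in the marrow, among them (-1.87 ± 0.36). Ccr1, Ccr3, Cxcr3, Cx3cr1, S1pr1, Ccl1, Ccl2, Ccl7, Cxcl2 and Cxcl9 were on 0 arrays.

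**Figure D4:**
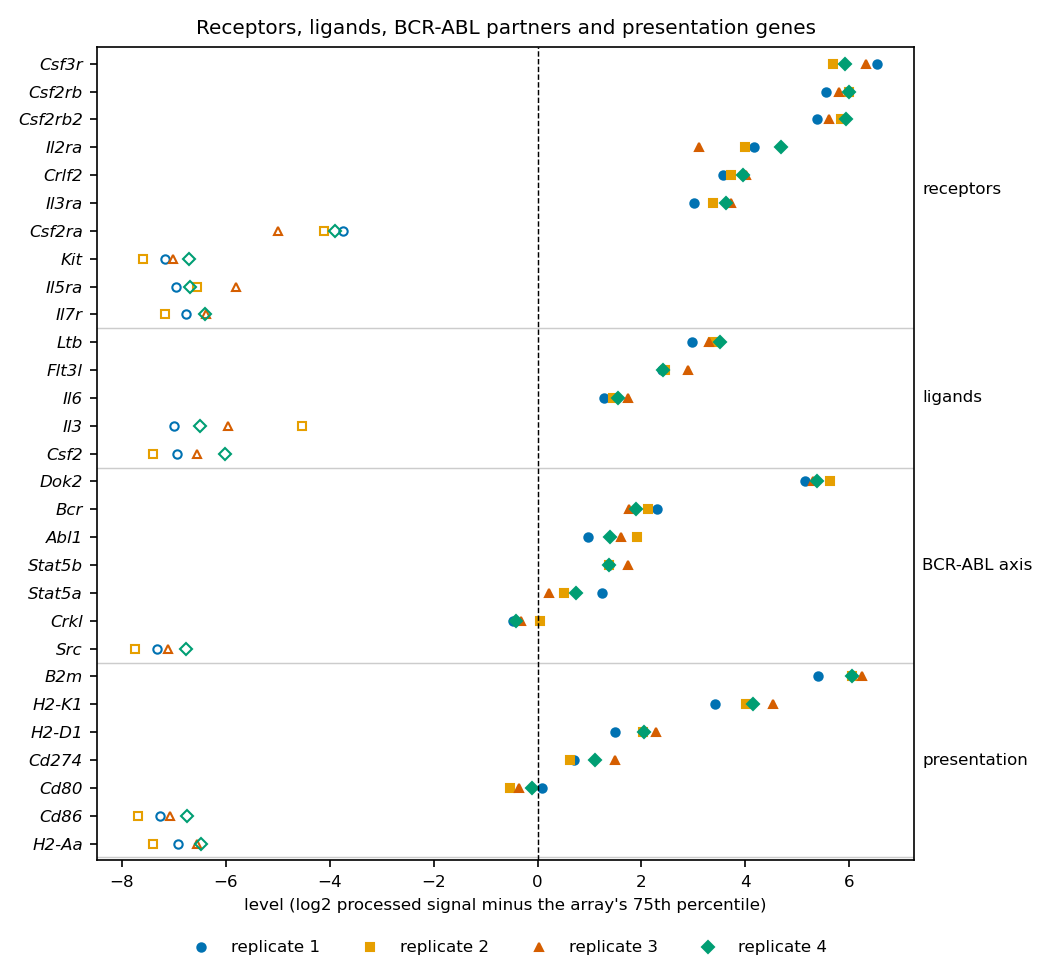
Levels on each of the 4 VOID arrays (horizontal axis, log2 relative to the array's 75th percentile; symbols are replicates) for receptors, ligands, BCR-ABL partners and antigen presentation genes. Filled symbols are genes detected on all 4 arrays; open symbols mark the others, Csf2ra on 3 arrays, Il3 on 1 and the rest on 0. Csf2rb and Csf2rb2 lay between 5.39 and 5.99, and Kit and Cd86 below -6.7.

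Surface antigens gave 31 of 54 detected genes. Ly6e, a GPI-anchored protein, was at 6.42, 6.66, 6.37 and 6.62, and the tetraspanin gene Cd63 of granules at 5.69, 5.68, 5.97 and 6.10. Slc3a2, the CD98 heavy chain, was at 5.08 ± 0.24 and Cd47, which inhibits phagocytosis, at 3.83, 4.11, 4.50 and 4.03 on 2 of 3 probes. Bsg, which encodes CD147, was at 3.38 ± 0.87 and Cd300lf at 3.06 ± 0.50. The CD200 receptor family was detected in all 4 measured members, Cd200r2 (2.27 ± 0.30), Cd200r1 (0.65 ± 0.27), Cd200r3 (0.56 ± 0.29) and Cd200r4 (-0.57 ± 0.50), while its ligand gene Cd200 was on 0 arrays. Fcgr3 was at 1.60 ± 0.66, Cd44 at 1.37 ± 0.34 and Cd38 near the floor (-3.88 ± 0.32). Cd34, Thy1, Ly6a, Cd33, Cd36, Cd59a, Cd83, Cd96 and Dpp4 were on 0 arrays.

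Adhesion genes were detected in 19 of 26 cases. Of the integrin chains, Itga2b (3.59 ± 0.25), Itga6 (3.57 ± 0.09), Itgam (3.31 ± 0.44), Itgb7 (2.75 ± 0.13), Itgb3 (2.48 ± 0.44), Itgb2 (2.17 ± 0.50), Itgb1 (1.22 ± 0.10) and Itga4 (1.07 ± 0.18) were above 0, and Itgal (-0.75 ± 0.17) and Itga5 (-2.04 ± 0.22) below it. Icam1 was at -2.60 ± 0.35, and Vcam1, Itgae, Itgb5, Itga2, Cdh1, Esam and Jam3 were on 0 arrays.

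Antigen presentation genes of class I were all detected and those of class II in 5 of 12 cases (41.7%), which is near the 48.1% of all genes. B2m, the light chain of class I molecules, was at 5.39, 6.05, 6.26 and 6.06, a mean of 5.94 ± 0.38 (SD, n = 4). H2-K1 was at 3.42, 4.02, 4.53 and 4.15 and H2-D1 at 1.50, 2.02, 2.28 and 2.05, both lowest on replicate 1, and the non-classical H2-T23 at 5.27 ± 0.45. H2-K1, H2-T23 and H2-Q7 have probes that share a run with probes of other genes. The peptide transporter genes Tap2 and Tap1 were at 4.22 ± 0.08 and -0.07 ± 0.10, the immunoproteasome genes Psmb9 and Psmb8 at 4.49 ± 0.15 and 4.14 ± 0.07, H2-Q4 and the proteasome activator gene Psme2 at 4.52 ± 0.30 and 4.44 ± 0.27, Calr, a chaperone of class I loading, at 4.56 ± 0.23 and Nlrc5, the class I transactivator, at 0.47 ± 0.35. All 19 were detected, 6 of them within the top 10% of detected genes.

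Of 12 class II genes, 7 were on 0 arrays: the chains H2-Aa, H2-Ab1, H2-Ea, H2-Eb1 and H2-Eb2, H2-DMb2, and Ciita, the class II transactivator. H2-Aa was at -6.93, -7.40, -6.55 and -6.49. Those detected were H2-DMb1 (2.30 ± 0.30, 1 of 2 probes), H2-Ob (1.58 ± 0.55), H2-Oa (1.33 ± 0.25), H2-DMa (-0.94 ± 0.57) and the invariant chain gene Cd74 (-2.25 ± 0.39). Of the checkpoint and costimulation list 12 of 23 were detected (52.2%), near the 48.1% of all genes, which is not a result about its members. That 0 of the 12 lay within the top 10% of detected genes is too small a count to read. Cd274, which encodes PD-L1, was at 0.71, 0.62, 1.50 and 1.11, highest on replicate 3, and Pdcd1lg2, PD-L2, at 0.82 ± 0.31. Cd80 was at 0.08, -0.52, -0.36 and -0.11, whereas Cd86, the other ligand of CD28 and CTLA4, was on 0 arrays, as were Cd40, Cd70, Btla, Ctla4 and Ido1. Tnfsf9, the 4-1BB ligand, was at 0.58 ± 0.25, Lgals9 at -0.13 ± 0.41 and Icosl at -0.27 ± 0.42.

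The NF-kB pathway was detected in 27 of 30 genes. Rela, the endogenous p65 gene, was at 4.33, 4.24, 4.43 and 4.50, a mean of 4.37 ± 0.11 (SD, n = 4) and rank 1227. Its kinase Chuk was at 3.62 ± 0.11, the inhibitor gene Nfkbia at 3.33 ± 0.28, the adaptors Traf2 and Tradd at 2.92 ± 0.48 and 2.60 ± 0.14 and Tnip1 at 2.45 ± 0.24. Of the other subunits, Nfkb2 was at 0.26 ± 0.16, Relb at -0.84 ± 0.20 and Nfkb1 at -1.73 ± 0.42, while Rel was on 0 arrays. Bcl3 was on 0 arrays and Nfkbiz on 3, and the feedback gene Tnfaip3 was at -2.63 ± 0.42.

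Genes of cell death were detected in 25 of 30 cases. Of the survival genes, Bcl2l1, which encodes BCL-XL, was at 5.16, 5.45, 5.62 and 5.62, Mcl1 at 3.92 ± 0.32 and Bcl2 at 3.65 ± 0.28, and Birc5, survivin, at 4.91 ± 0.23. Of the death genes, which were found at both ends of the scale, Bax was at 4.18 ± 0.09, Bbc3, which encodes PUMA, at 3.92 ± 0.55, Bad at 3.43 ± 0.21 and Bak1 at 3.41 ± 0.22. Bcl2l11, the BIM gene that BCR-ABL signalling is known to restrain, was at -2.89 ± 0.38 on 1 of 2 probes. Pmaip1, Hrk, Bik, Bok and Casp12 were on 0 arrays. Of the sensors of infection 15 of 23 were detected, led by Nlrp1a (3.25 ± 0.15, 1 of 3 probes), Cgas (2.12 ± 0.43) and Ddx58 (0.96 ± 0.17). Aim2 (0.65 ± 0.79), Nod1 (-0.01 ± 0.48) and Tlr9 (-0.04 ± 0.09) followed, with Tlr2 at -2.05 ± 0.25 and Tlr4 at -2.31 ± 0.46, and Tlr1, Tlr3, Tlr5 and Cd14 on 0 arrays.

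Genes of the cell cycle were bright. The replicative helicase gene Mcm6 was at 5.85, 5.86, 5.61 and 6.40, Mki67, which encodes the proliferation marker Ki-67, at 5.51, 5.22, 5.30 and 4.98, and Ccnb2, Pcna, Mcm3 and Plk1 at 5.03 ± 0.19, 4.98 ± 0.40, 4.58 ± 0.48 and 4.26 ± 0.35. Of the list 24 of 26 were detected, with Ccne2 and Aurkb on 0 arrays. The telomerase genes Tert (-3.78 ± 0.20) and Terc (-3.58 ± 0.35) were detected near the floor. Housekeeping genes were all detected, from Actb and Tpt1 down to Hprt (3.41 ± 0.11) and Tbp (0.11 ± 0.19). Between them lay Rplp0 (8.39 ± 0.34), Ppia (8.21 ± 0.16), Tuba1b (8.18 ± 0.21) and Gapdh (8.14 ± 0.16, the brightest of 7 detected probes). The other Gapdh probes had means of 4.73 to 7.91 and SDs of 0.37 to 0.84, each lowest on replicate 1 and highest on replicate 3. With the mean of its probes the rank of Gapdh went from 64 to 294. Among drug transporters Abcc1 was at 2.43 ± 0.47, Abcc4 at 1.01 ± 0.45, Abcb1a at -1.95 ± 0.09, Abcb1b at -2.13 ± 0.37 and Abcc2 at -3.98 ± 0.97, with Slc29a1 on 0 arrays.

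Neither Xist, the RNA that silences an X chromosome in female cells, nor the Y-linked genes tested were detected. Both Xist probes were below background on all 4 arrays, the brighter at -6.80, -7.37, -6.68 and -6.45, and Tsix was above it on 1 array. Ddx3y, Eif2s3y, Kdm5d, Uty, Usp9y, Zfy1, Zfy2 and Sry were on 0 arrays. Of 31 genes that RefSeq places on the Y chromosome 1 was detected, Uba1y (-1.64, -0.82, -1.15 and -0.69), while X-linked genes were detected in 40.2% of 894 cases and those of the autosomes in 44.4% to 59.4%. The Hprt gene on the X chromosome was at 3.27, 3.41, 3.43 and 3.54.

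Of the genes that differed most between the 4 arrays, many were highest on replicate 3. Among the 12 with the largest SD, replicate 3 was the highest for 10 and replicate 1 the lowest for 9. Gipr, a receptor for an incretin hormone, was at -2.13, -0.75, 1.61 and -2.05, an SD of 1.75, and Castor1, an arginine sensor of mTORC1, at -2.48, -0.92, 0.31 and -3.26. Ero1a, which oxidises proteins in the endoplasmic reticulum, was at -0.87, 1.10, 2.78 and 0.27. Ndrg1, a stress gene induced by low oxygen, was at 3.00, 3.70, 6.48 and 4.04. Replicate 3 was the highest array for each of these. Saa3, an acute phase gene, was at 1.13, 2.28, 4.63 and 3.61, Pim2, a survival kinase, at -0.18, 1.61, 3.25 and 0.73, Maff at -1.97, -1.65, 1.29 and -1.09 and Rgcc, a cell cycle regulator, at -4.21, -3.13, -0.76 and -2.42, again with replicate 3 on top. Prdm10 was at -3.93, -4.43, -1.28 and -4.07. The exceptions were Tbx22, a T-box factor highest on replicate 1 (0.19, -3.21, -1.56 and -3.06), and Gng11, a G protein subunit highest on replicate 4 (-3.57, -2.95, -3.01 and -0.37). In all 115 of the 13126 detected genes had an SD over 1, and replicate 3 was the highest array for 32.7% of all detected genes and for 47 of the 100 most variable, of which another 35 were highest on replicate 1.

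A list of 40 genes of glycolysis and the response to low oxygen was drawn up after these values were seen, so its pattern is a description. Of the 40, 35 were detected, and 30 of the 35 were highest on replicate 3, beside 32.7% of all detected genes. The median deviation from the gene's own mean was 0.68 on replicate 3, -0.54 on replicate 1, 0.01 on replicate 2 and -0.16 on replicate 4. Over all detected genes these medians lay between -0.04 and 0.04. The glucose transporter genes Slc2a1 and Slc2a3 were at 2.67, 2.91, 5.24 and 3.51 and at 4.49, 5.50, 7.00 and 5.65, the mitophagy receptor gene Bnip3 at 4.78, 5.92, 7.32 and 5.21, P4ha1, a collagen prolyl hydroxylase, at -1.12, -0.89, 1.12 and -0.81 and Egln1, the oxygen sensor PHD2, at -2.33, -0.47, 0.79 and -0.89. Hif1a was at -0.29, -0.12, -0.22 and -0.22, with little spread. Aldoa, the first gene of the ranking, is a member of this list and had its highest level (9.61) on replicate 3 and its lowest (8.16) on replicate 1. The part of culture conditions, slide or labelling in this pattern was not tested.

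**Figure D5:**
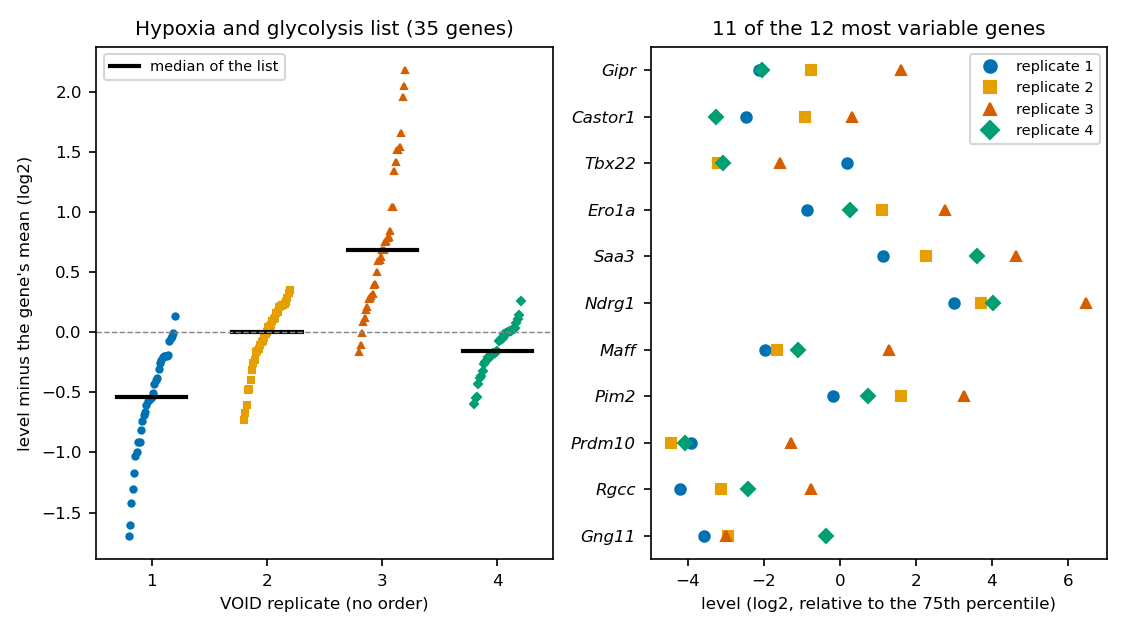
Left, level minus the gene's own mean over the 4 arrays (vertical axis, log2) for the 35 detected genes of glycolysis and the low-oxygen response on each VOID replicate (horizontal axis), points sorted by value, with the median as a bar: 0.68 on replicate 3 and -0.54 on replicate 1. Right, levels (horizontal axis, log2 relative to the array's 75th percentile) of 11 of the 12 most variable genes; replicate 3 was the highest for all of them but Tbx22 and Gng11.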

How the data were processed

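The values came from the authors' deposited scanner files of 1-colour (Cy3) Agilent arrays. Per the file headers, the intensity used (the processed signal) is the spot signal after background subtraction and detrending by Agilent Feature Extraction 10.7.3.1, with no scaling between arrays. Control spots and spots marked as uneven were left out. The log2 of each spot was taken, spots of a probe were averaged and each array's 75th percentile was subtracted. Of 36590 named probes, 27508 were named through their RefSeq accession, and the others keep the name in the files. The members and lists were chosen with earlier results of these data known. The text names the 25 brightest and 12 most variable genes, and of each list up to 6 of the brightest and up to 6 below background on all arrays, with a fixed set of leukaemia genes. Other genes were named for their known role, after their values were seen. The list of glycolysis and low-oxygen genes, and the setting without probes that share a run, were also chosen after seeing the data. Python 3.11.15, numpy 2.4.6, pandas 2.3.3, R 4.3.3 and limma 3.58.1 were used. No groups were compared, and the only test was Dixon's for a single array that stands apart. On simulated data, shifts added to gene levels were recovered and the rate of Dixon's flags was checked. The ranking itself was not tested. Some genes that the rule picks are not reported here.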

Additional observations from a re-analysis of the deposited data

Results flagged for a closer look

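Among 199 detected named genes, 11 had 1 array far from the other 3 (the gap to the nearest of the others over the whole range was above Dixon's critical value for 4 samples). Chance flags about 1 in 20 groups, so 11 of 199 is near that rate and is not a result about these genes. The 199 also include the 12 genes picked for the largest SD over these same arrays, Prdm10 among them. Replicate 3 was the high one for Slc18a2 (5.52, the others 4.73 to 4.80), Calr (4.90, the others 4.40 to 4.48), Flt3l (2.91, the others 2.40 to 2.46), Cdkn1b (2.81, the others 1.83 to 1.97) and Prdm10 (-1.28, the others -4.43 to -3.93). Replicate 1 was the low one for Elane (-1.90, the others -1.11 to -1.02), H2-DMa (-1.79, the others -0.74 to -0.58), Prf1 (-2.35, the others -1.27 to -1.09) and Krt14 (-4.54, the others -3.70 to -3.62). Replicate 4 was the high one for Itgax (-1.92, the others -4.50 to -4.06) and Abcc2 (-2.55, the others -4.66 to -4.33).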

How the results depend on the processing

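The number of detected genes (13126) was 8361, and that of detected list members (438) 288, when only genes with 1 probe were kept, which leaves fewer genes. Of the 50 brightest genes, 25 were also among the brightest 50 with the mean of a gene's probes, 17 with only genes of 1 probe and 33 without probes that share a run with another gene, a setting chosen after seeing the data. With normexp background correction it was 42. Leaving out each array in turn gave a median SD of 0.228 to 0.310, the lowest without replicate 3, and 13141 to 13443 detected genes. The series' value table gave the same levels, with a largest difference of 0. Of 199 detected named genes, 48 moved by more than their SD with normexp, 60 with the mean of a gene's probes and 5 with quantile normalization. Taking the percentile over detected probes moved all 199, since it shifts the scale. Counting genes above background on at least 1 array changed 10 of the 36 list counts by over 1.5 times. Dim genes are limited by the signal over background: the lowest detected level was -4.58. No paired analysis was possible because no groups were compared.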
